A study of Mus musculus with 8 samples.

Results

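Potassium channel subunits were followed through the RNA-seq counts of mouse left ventricle. All genes whose symbol begins with Kcn, together with Abcc8 and Abcc9, were taken from the deposited table, and the overlapping transcript Kcnq1ot1 was set aside. This gave 100 genes of the 55385 in the table: 67 pore-forming subunits, 28 auxiliary subunits, 4 antisense transcripts and the regulator Kcnrg. Of these, 58 passed the filter on low counts and were tested, 33 had between 1 and 94 counts over all libraries without passing it, and 9 had 0 counts in every library. There were 8 libraries, each from the left ventricle of male mice of the C57BL6 strain, with 4 in the Mst1-TG group and 4 in the WT group. Mst1-TG mice carry an Mst1 transgene under the alpha-myosin heavy chain promoter, which limits it to cardiomyocytes, and have experimental dilated cardiomyopathy. WT mice are their non-transgenic littermates. The design text of the series gives an age of 3 weeks, while the RNA extraction protocol says 3 months.

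Potassium channels set the resting potential of the cardiomyocyte and bring the membrane back to it after each beat. Voltage-gated channels of the Kv families open during the action potential: in the mouse ventricle the transient outward current gives the early repolarisation, and delayed rectifiers of several families complete it. Inward rectifiers hold the resting potential, K-ATP channels open when ATP falls, and two-pore channels carry background currents. Each pore is built from several alpha subunits, and auxiliary subunits tune its gating and its transport to the membrane.

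The libraries held 21193536 to 23809256 estimated counts. Stk4, the mouse gene for the Mst1 kinase, averaged 27.2 CPM in WT against 1608 CPM in Mst1-TG, where CPM are library-normalised counts with TMM factors. Mitochondrially encoded genes took 21.4% to 23.8% of the counts in WT and 12.9% to 14.4% in Mst1-TG. Cardiomyocyte markers were present at high levels in all libraries. Their summed level was 71480 to 83494 CPM in WT and 46022 to 58778 CPM in Mst1-TG. Of the 12, 9 fell while 3, Ryr2, Actc1 and Ttn, did not pass, where 21.1% of all genes tested fell. The 12 markers moved unevenly, with log2 fold changes from -1.55 (Ckm) to 0.07 (Ttn). In these bulk samples, fewer cardiomyocytes and less RNA per cardiomyocyte cannot be told apart.

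Potassium channel genes were lower in Mst1-TG more often than higher. Of the 58 tested members, 23 fell (39.7%), 9 rose (15.5%) and 26 did not pass at an edgeR adjusted p below 0.05 over all genes. Over all 15314 genes tested, 21.1% fell and 21.2% rose. Of the members that rose, Kcnj6, Kcnk10 and Kcnq5 had too few WT counts to pass the filter without their Mst1-TG libraries. Of those that fell, Kcnh7 had too few Mst1-TG counts to pass it without its WT libraries. The median log2 fold change of the tested members, Mst1-TG over WT, was -0.35, against 0.01 for all genes tested. By role, 19 of 42 tested pore-forming members fell and 7 rose, while 4 of 16 tested auxiliary members fell and 2 rose. A change of at least 2-fold was called lower for 8 members and higher for 6, against 4.6% and 5.81% of all genes. The libraries of the groups did not overlap for 21 members that were lower and 9 that were higher, where 40.3% of all genes were so separated, 20.1% lower and 20.2% higher. The summed level of all 100 members was 1883 to 2049 CPM in WT and 1181 to 1400 CPM in Mst1-TG. When libraries were scaled by their totals alone, which moved the median of all genes to 0.29, the members called were 14 lower and 13 higher (10.4% and 48.4% of all genes). The 14 lower members were all among the 23. Leaving out single libraries gave the fewest lower calls without WT 2 (20 lower and 8 higher, against 18.8% and 18.6% of all genes) and the most without Mst1-TG 2 (26 and 9, against 20.6% and 20.2%). Without WT 3 they were 21 and 8 (18.5% and 17.9%), and without WT 4 they were 22 and 10 (19.9% and 20%). With replicate number as a block they were 21 and 8 (20.4% and 20%).

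**Figure D1:**
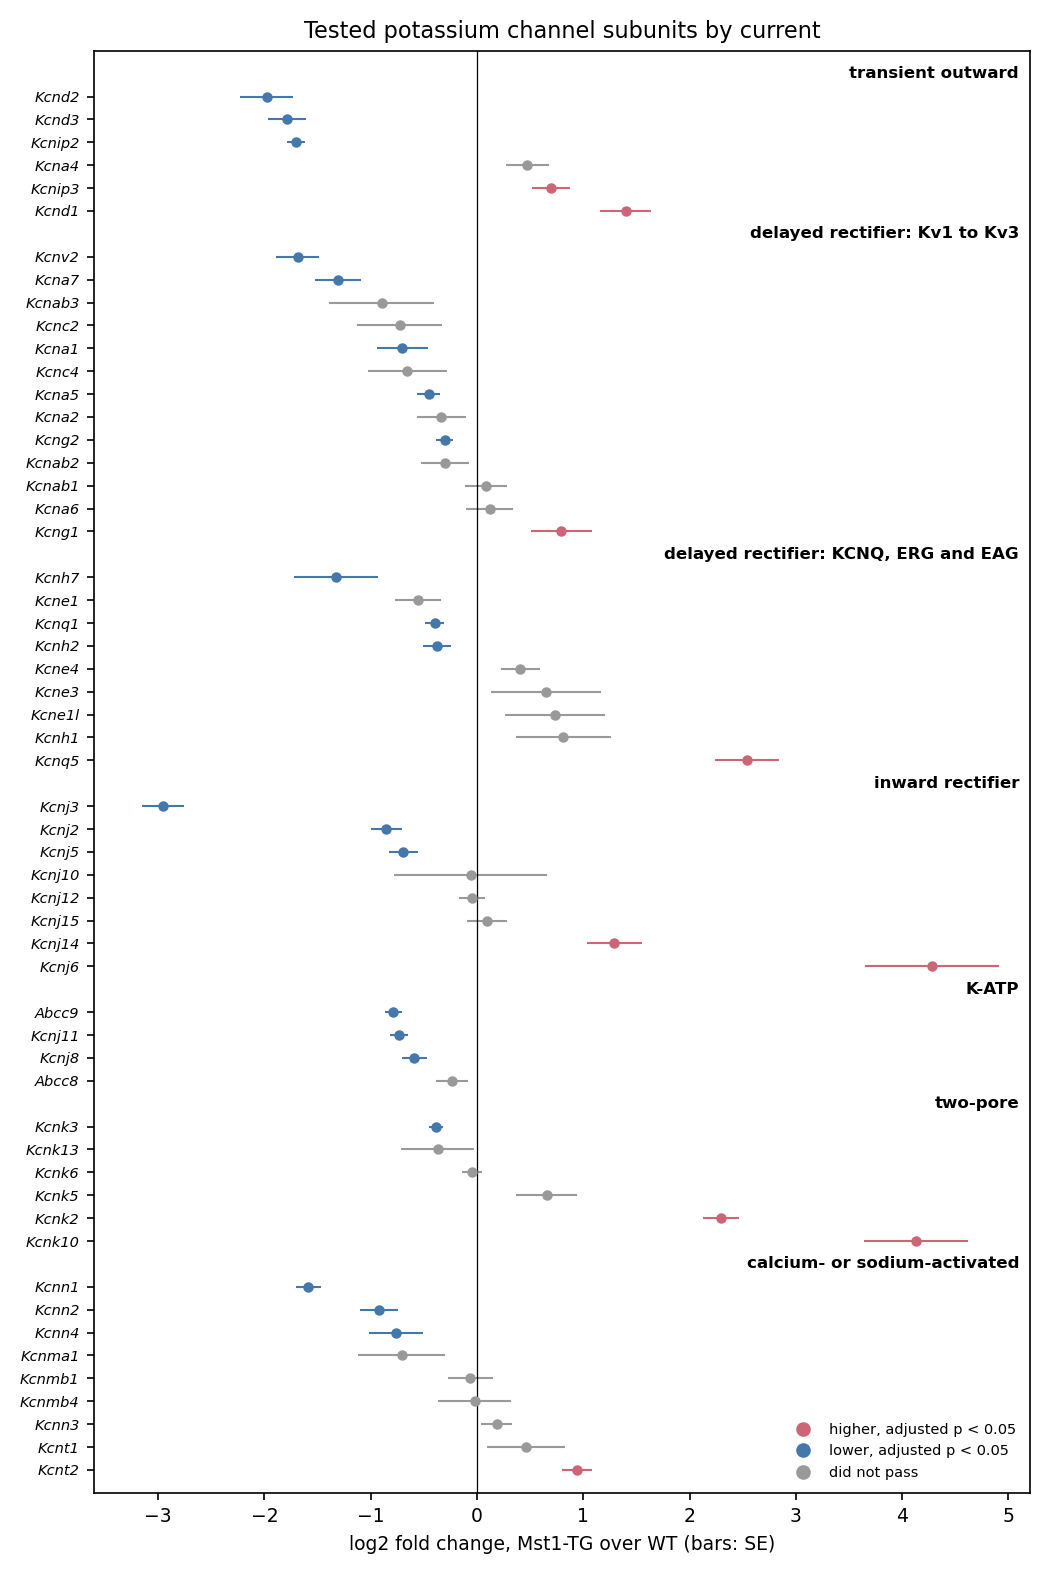
Log2 fold change of the tested members that are reported here (horizontal axis, Mst1-TG over WT, bars are SE), grouped by current, with 4 libraries per group. Kcnj3 lies farthest left at -2.96, and Kcnj6 and Kcnk10 lie farthest right at 4.28 and 4.13. Kcnj6 and Kcnk10 passed the filter on low counts only through their Mst1-TG libraries.

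The transient outward current had the largest proportional loss in summed CPM of any current, in a sum where the auxiliary subunit Kcnip2 weighs most. Its pore is made by Kcnd2 (Kv4.2) and Kcnd3 (Kv4.3), and Kcnip2 (KChIP2) is the calcium-binding auxiliary subunit that brings them to the membrane. Kcnip2 (ENSMUSG00000025221.16, chr19:45791839-45816061, reverse strand, GRCm38) stood at 179, 173, 188 and 163 CPM in WT 1 to 4 and at 49.1, 62.1, 48.7 and 56.3 CPM in Mst1-TG 1 to 4. Every Mst1-TG library was below every WT library, with a log2 fold change of -1.70 ± 0.08 (SE, edgeR adjusted p = 1.7e-08), a 3.25-fold lower level. Kcnd2 (ENSMUSG00000060882.5, chr6:21215503-21729805, forward strand) was at 16.9, 18.2, 20.02 and 20.5 CPM in WT and at 5.84, 7.21, 2.81 and 3.35 CPM in Mst1-TG. It was low in all 4 Mst1-TG libraries, lowest in Mst1-TG 3 and 4, and fell by 1.98 ± 0.25 on the log2 scale (edgeR adjusted p = 1.1e-04). Kcnd3 (ENSMUSG00000040896.16, chr3:105452330-105674002, forward strand) was at 11.0, 14.0, 11.5 and 11.5 CPM in WT and at 3.53, 4.49, 2.16 and 3.72 CPM in Mst1-TG. The groups did not overlap, and the fall was 1.79 ± 0.18 (edgeR adjusted p = 4.2e-06).

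Kcnd1 and Kcnip3 went the other way. Kcnd1 (Kv4.1) rose from 0.803, 0.724, 0.666 and 1.16 CPM in WT to 1.99, 2.29, 2.37 and 2.22 CPM in Mst1-TG, with no overlap (log2 fold change 1.398 ± 0.242, edgeR adjusted p = 4.2e-04). Kcnip3, a KChIP that is also known as the calcium-binding repressor DREAM, was at 2.08, 2.43, 1.81 and 2.42 CPM in WT and at 3.00, 3.24, 3.79 and 4.10 CPM in Mst1-TG. It rose in every Mst1-TG library over every WT library (0.69 ± 0.18, edgeR adjusted p = 0.0074). Kcna4 (Kv1.4), which carries the slow component of the transient outward current, was at 2.55, 3.26, 2.66 and 2.52 CPM in WT and at 4.95, 3.89, 2.61 and 3.81 CPM in Mst1-TG. Its groups overlapped through Mst1-TG 3 and it did not pass (0.47 ± 0.20, edgeR adjusted p = 0.077). It passed without Mst1-TG 3 (0.62) and with library totals only (0.76). Kcnip1 and Kcnip4 were not tested, with 12 and 21 counts in WT and 3 and 18 in Mst1-TG. Summed over the 8 genes of this current, the level was 201.5 to 225 CPM in WT and 62.7 to 83.5 CPM in Mst1-TG.

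**Figure D2:**
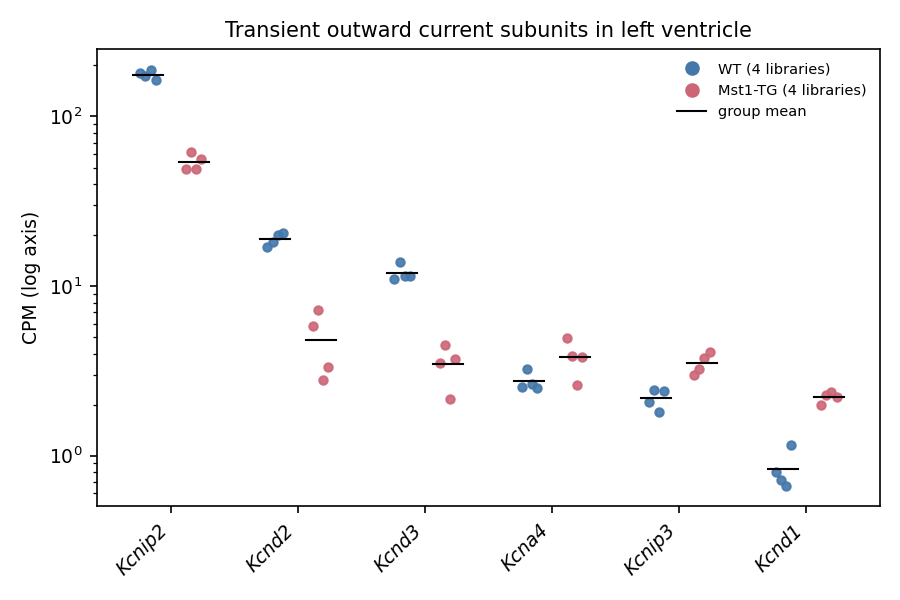
CPM of the 6 tested transient outward subunits in each library (log axis), with points for the 4 WT and 4 Mst1-TG libraries and a line at each group mean. Kcnip2, Kcnd2 and Kcnd3 are lower in every Mst1-TG library, and Kcnip3 and Kcnd1 are higher in every one.

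Since Kcnip2, Kcnd2 and Kcnd3 fell together, their promoter windows are shown (RefSeq, GRCm38.p6, from 250 bases before to 50 after the start, 5′ to 3′). Capitals mark GC boxes (GGGCGG on either strand). The windows are chr19:45816014-45816313 on the reverse strand for Kcnip2, chr6:21215096-21215395 on the forward strand for Kcnd2 and chr3:105451640-105451939 on the forward strand for Kcnd3.
Kcnip2: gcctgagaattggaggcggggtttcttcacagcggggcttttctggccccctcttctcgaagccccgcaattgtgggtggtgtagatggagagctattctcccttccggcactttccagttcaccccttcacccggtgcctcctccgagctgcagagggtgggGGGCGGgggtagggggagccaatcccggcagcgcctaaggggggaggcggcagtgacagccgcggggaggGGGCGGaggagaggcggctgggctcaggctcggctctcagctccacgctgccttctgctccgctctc
Kcnd2: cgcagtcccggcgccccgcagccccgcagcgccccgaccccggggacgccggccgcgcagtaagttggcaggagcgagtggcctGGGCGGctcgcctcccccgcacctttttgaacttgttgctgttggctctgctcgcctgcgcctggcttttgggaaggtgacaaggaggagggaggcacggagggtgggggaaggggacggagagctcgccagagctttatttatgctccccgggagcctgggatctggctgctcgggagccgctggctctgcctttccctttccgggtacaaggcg
Kcnd3: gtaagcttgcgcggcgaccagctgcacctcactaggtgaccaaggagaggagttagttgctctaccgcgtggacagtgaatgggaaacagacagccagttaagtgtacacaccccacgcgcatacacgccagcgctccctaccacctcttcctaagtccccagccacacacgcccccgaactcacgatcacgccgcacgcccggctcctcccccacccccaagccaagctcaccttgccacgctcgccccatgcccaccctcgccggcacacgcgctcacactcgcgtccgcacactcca
The 3 windows are rich in G and C, at 67%, 68.7% and 64%, against a median of 52.7% over 32851 promoter windows of mouse genes. Kcnip2 holds 2 GC boxes, Kcnd2 holds 1 and these letters are not in the Kcnd3 window. GC boxes were found in 35.7% of all windows, in 10 of 15 windows of members that fell and in 5 of 14 windows of members that rose. They were also in 13 of 28 windows of members that did not pass and in 48.5% of all 97 member windows. The windows of fallen members came from 14 genes and those of risen members from 6.

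Among delayed rectifier genes of the Kv1 to Kv3 families and their auxiliary subunits, falls were called more often than rises. Of 15 tested members 6 fell, Kcng1 rose and 8 did not pass, where 21.1% of all genes fell and 21.2% rose. Their median log2 fold change was -0.65. Kcna5 (Kv1.5), the pore of the ultrarapid delayed rectifier, was at 88.6, 76.8, 93.8 and 97.0 CPM in WT and at 62.7, 51.9, 70.2 and 74.8 CPM in Mst1-TG. It fell by 0.46 ± 0.11 (edgeR adjusted p = 0.005) with WT 2 only just above Mst1-TG 4, and did not pass with library totals only (-0.17). Kcng2 (Kv6.2), a silent subunit that forms channels only together with other Kv pores, was at 144, 146, 142 and 129 CPM in WT and at 115.5, 123, 97.7 and 118.5 CPM in Mst1-TG. Its fall of 0.30 ± 0.08 (edgeR adjusted p = 0.006) was small, and ended with library totals only (-0.02).

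Some low-level Kv genes changed by larger factors. Kcnv2, a silent subunit of the Kv8 family, was at 3.26, 3.46, 3.28 and 4.08 CPM in WT and at 1.34, 0.993, 0.897 and 1.13 CPM in Mst1-TG, a fall of 1.69 ± 0.20 (edgeR adjusted p = 1.8e-05). Kcna7 (Kv1.7) was at 4.11, 3.67, 3.57 and 3.73 CPM in WT and at 1.01, 2.03, 1.75 and 1.30 CPM in Mst1-TG, a fall of 1.31 ± 0.22 (edgeR adjusted p = 3e-04). Neither gene overlapped between groups. Kcna1 fell by 0.70 ± 0.24 and Kcng1 rose by 0.79 ± 0.28, at edgeR adjusted p of 0.033 and 0.039. Kcna1 lost its call with library totals only, with the replicate block and without WT 2, WT 3, Mst1-TG 2 or Mst1-TG 4. Kcng1 lost its call in 10 of 15 alternatives: without any single WT library, Mst1-TG 2 or Mst1-TG 4, and with all libraries under DESeq2, limma-voom, no filter on low counts and the replicate block (adjusted p from 0.0508 to 0.101 in these last 4). The Kv3 genes Kcnc2 and Kcnc4 were at -0.73 and -0.65 and did not pass. The Kv1 beta subunits Kcnab1, Kcnab2 and Kcnab3 did not pass either (-0.90 to 0.09).

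Among KCNQ, ERG and EAG channels the pores known from ventricle fell a little and a pore with few counts rose. Of 10 tested members 4 fell, 1 rose and 5 did not pass, where 21.1% of all genes fell and 21.2% rose. Their median was 0.02 (0.30 with library totals only). Kcnq1, the pore of the slow delayed rectifier, was at 40.7, 44.9, 42.7 and 37.9 CPM in WT and at 33.2, 33.7, 26.3 and 33.1 CPM in Mst1-TG. The groups did not overlap and the log2 fold change was -0.40 ± 0.09 (edgeR adjusted p = 0.0024), which did not pass with library totals only (-0.11). Kcne1, the auxiliary subunit that slows Kcnq1, ranged widely within both groups, at 51.4, 81.2, 67.9 and 52.4 CPM in WT and at 51.6, 32.5, 33.7 and 54.4 CPM in Mst1-TG. The groups overlapped, and it did not pass (-0.55 ± 0.22, edgeR adjusted p = 0.073). On the same libraries it passed with DESeq2 (adjusted p = 0.00935) and limma-voom (adjusted p = 0.0283), and with edgeR it passed without Mst1-TG 4 (-0.69). Kcnh2 (ERG1), the pore of the rapid delayed rectifier, was at 109.7, 91.2, 82.5 and 84.8 CPM in WT and at 75.2, 82.7, 53.4 and 72.7 CPM in Mst1-TG. WT 3 and Mst1-TG 2 met at nearly the same level, and the fall of 0.37 ± 0.13 (edgeR adjusted p = 0.041) was lost without WT 1, WT 2, Mst1-TG 1, Mst1-TG 3 or Mst1-TG 4 and with library totals only (-0.09).

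Kcnq5, a pore of M-type currents best known from neurons, went from 0.567, 0.93, 0.476 and 0.353 CPM in WT to 4.05, 3.41, 2.28 and 3.81 CPM in Mst1-TG. All 4 Mst1-TG libraries were far above WT, a 5.81-fold rise (2.54 ± 0.30, edgeR adjusted p = 1.6e-05). Kcnh7 (ERG3) was below 1.5 CPM in all libraries and fell by 1.33 ± 0.39 (edgeR adjusted p = 0.015), a call that was lost without WT 2 (-1.06). It had 16, 28, 24 and 9 counts in WT 1 to 4 and 7, 9, 11 and 9 in Mst1-TG 1 to 4. Without its WT libraries, the group where it is high, it had too few counts to pass the filter. Kcnh7 shares 4.57% of its exon length with Gca on the opposite strand, which fell as well (-1.46). Kcne4, an inhibitory auxiliary subunit, did not pass (0.41 ± 0.19, edgeR adjusted p = 0.097). It passed with library totals only (0.69), with no filter on low counts (0.41) and without WT 4 (0.59), the WT library where it was highest, at 8.47 CPM.

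The inward rectifiers split by gene rather than moving together. Of 8 tested members 3 fell, 2 rose and 3 did not pass, where 21.1% of all genes fell and 21.2% rose. Their median of -0.05 ranged over the alternatives from -0.37 (limma-voom, and without Mst1-TG 1) to 0.23 (library totals only). Their summed level was 176 to 220 CPM in WT and 96.4 to 138.5 CPM in Mst1-TG. Kcnj2 (Kir2.1), the main pore of the resting inward rectifier current, was at 38.4, 39.3, 37.3 and 34.7 CPM in WT and at 21.8, 27.2, 15.0 and 18.9 CPM in Mst1-TG. It fell in every Mst1-TG library, by 0.85 ± 0.15 (edgeR adjusted p = 6.6e-04). Its partner in the same channel, Kcnj12 (Kir2.2), was at 29.2, 27.1, 28.5 and 21.4 CPM in WT and at 24.4, 30.6, 20.7 and 27.2 CPM in Mst1-TG. These libraries were mixed (-0.05 ± 0.12, edgeR adjusted p = 0.8), and the sign turned with library totals only (0.24) and without Mst1-TG 3 (0.04). Kcnj14 (Kir2.4) was at 0.614, 0.724, 1.05 and 1.01 CPM in WT and at 2.11, 1.60, 2.49 and 2.13 CPM in Mst1-TG. It rose without overlap (1.29 ± 0.26, edgeR adjusted p = 0.0013).

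Kcnj3 and Kcnj5 encode the Kir3 pores that acetylcholine opens through G proteins, a current known best from atrium and sinus node. Kcnj3 (Kir3.1, ENSMUSG00000026824.11, chr2:55435970-55598145, forward strand) was at 35.9, 35.1, 26.9 and 34.0 CPM in WT and at 5.59, 4.92, 2.49 and 3.97 CPM in Mst1-TG. The 7.76-fold fall (log2 fold change -2.96 ± 0.20, edgeR adjusted p = 6e-07) was the deepest of all tested members. Kcnj5 (Kir3.4) was at 112, 93.3, 82.1 and 77.8 CPM in WT and at 58.9, 69.2, 48.9 and 48.7 CPM in Mst1-TG. It fell much less, by 0.69 ± 0.14 (edgeR adjusted p = 0.0021). Kcnj3 shares 31.1% of its exon length with a gene annotated on the opposite strand, and since the strand setting of the counting is not given, reads of the pair may not have been kept apart. Atrial markers moved in both directions: of 10, Myl7, Myl4, Sln and Tbx5 fell, Nppa and Dkk3 rose, 3 did not pass and Bmp10 was at 0 in all libraries. Over all genes tested, 21.1% fell and 21.2% rose. Myl7, the atrial light chain, averaged 49.8 CPM in WT against 24.5 CPM in Mst1-TG. The summed atrial list, led by Nppa, was at 404 to 485 CPM in WT and 5278 to 7447 CPM in Mst1-TG. The part of atrial tissue in the fall of Kcnj3 was not tested.

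Kcnj6 (Kir3.2), the neuronal relative in this family, was at 0, 0, 0.0476 and 0.0504 CPM in WT and at 0.608, 0.475, 0.652 and 0.585 CPM in Mst1-TG. It rests on 2 counts in WT against 56 in Mst1-TG, a ratio of 23.7 with an exact 95% counting interval from 6.25 to 200 (edgeR adjusted p = 1.1e-04). It passed the filter on low counts only through its Mst1-TG libraries, the group where it is high. Kcnj6 shares 4.98% of its exon length with Gm41505 on the opposite strand, which averaged 0.49 CPM in WT against 5.21 CPM in Mst1-TG, so some of its few counts may belong to that gene. Kcnj10 and Kcnj15 did not pass.

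All 4 K-ATP genes were tested, and 3 of them fell, where 21.1% of all genes fell. These channels pair a Kir6 pore, Kcnj11 or Kcnj8, with a sulphonylurea receptor, Abcc9 or Abcc8, and couple the membrane to the energy state of the cell. Abcc9 (SUR2), the ventricular receptor, was at 420.4, 364, 392 and 355 CPM in WT and at 218.5, 248, 202 and 218.5 CPM in Mst1-TG, and fell by 0.79 ± 0.08 (edgeR adjusted p = 4.3e-06). Kcnj11 (Kir6.2), the ventricular pore, was at 158, 156.5, 152 and 143.5 CPM in WT and at 85.0, 108.7, 79.4 and 93.8 CPM in Mst1-TG, and fell by 0.73 ± 0.09 (edgeR adjusted p = 1.8e-05). In both genes every Mst1-TG library was below every WT library, with Mst1-TG 2 the highest of its group. Kcnj8 (Kir6.1), the pore of vascular K-ATP channels, was at 90.5, 72.8, 88.6 and 89.8 CPM in WT and at 46.5, 50.6, 64.1 and 66.0 CPM in Mst1-TG. It fell by 0.59 ± 0.12 (edgeR adjusted p = 0.0016). Scaling by library totals alone took it just past the threshold (-0.30, edgeR adjusted p = 0.0537).

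Abcc8 (SUR1), the receptor of pancreatic and atrial K-ATP channels, was at 44.3, 50.4, 53.5 and 39.3 CPM in WT and at 35.1, 53.5, 34.3 and 36.6 CPM in Mst1-TG. Mst1-TG 2 alone lay within the WT range at its top, and the gene did not pass (-0.23 ± 0.15, edgeR adjusted p = 0.243). It was called lower without Mst1-TG 2 (-0.41, edgeR adjusted p = 0.00503) and with no filter on low counts (-0.23, edgeR adjusted p = 0.0282), and its sign turned with library totals only (0.05). Kcnj8 and Abcc9 are also made by pericytes and smooth muscle cells. Of 9 markers of those cells, 3 rose (Cspg4, Des and Cnn1), 2 fell (Acta2 and Myh11), 4 did not pass and none was at 0. Over all genes tested, 21.2% rose and 21.1% fell. In WT their sum lay between 3112 and 3360 CPM, and in Mst1-TG between 5118 and 5560 CPM. This rise came from the cardiomyocyte protein desmin (Des), whose mean went from 1442 in WT to 3913 CPM in Mst1-TG. Without Des, the remaining markers summed to less in Mst1-TG than in WT, although Cspg4 and Cnn1 rose. The largest of them, Rgs5, which did not pass, and Acta2, had WT means of 852.5 and 486.7 CPM. Their Mst1-TG means were 694 and 182.8 CPM. The part of these cells in the K-ATP result was not tested.

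**Figure D3:**
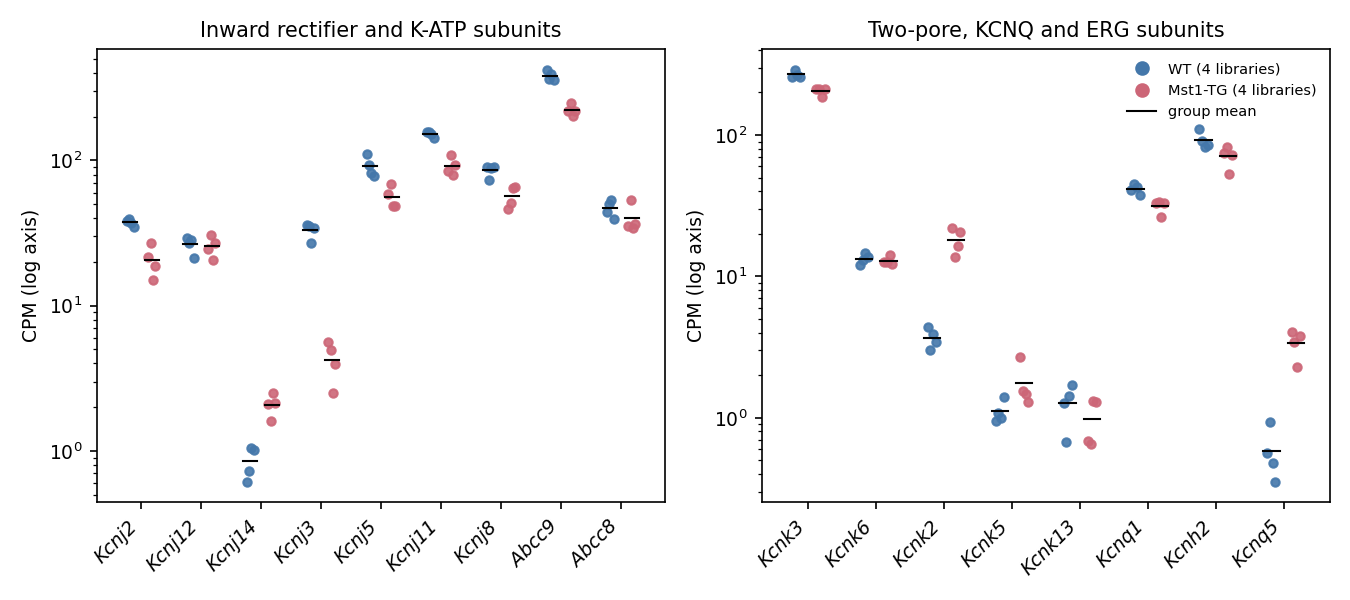
CPM per library (log axis) of inward rectifier and K-ATP subunits on the left and of two-pore, KCNQ and ERG subunits on the right, with points for the 4 libraries of each group and lines at group means. Kcnj3 drops by far the most on the left, and Kcnk2 and Kcnq5 rise on the right while Kcnk3 falls slightly.

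The two-pore channels held some of the largest rises of the whole set, and a fall of Kcnk3. Of 6 tested members 2 rose, 1 fell and 3 did not pass, where 21.2% of all genes rose and 21.1% fell. Their median was 0.30. Kcnk3 (TASK-1), an acid-sensitive background channel, was at 258, 289, 268 and 259 CPM in WT and at 213, 212, 186 and 212 CPM in Mst1-TG. It fell by 0.39 ± 0.07 (edgeR adjusted p = 5.7e-04) without overlap, though not with library totals only (-0.10). Kcnk2 (TREK-1, ENSMUSG00000037624.15, chr1:189207930-189402273, reverse strand), a channel that opens on membrane stretch, was at 4.39, 3.00, 3.90 and 3.43 CPM in WT and at 22.1, 13.7, 16.4 and 20.6 CPM in Mst1-TG. All Mst1-TG libraries were far above the highest WT library, and the rise was 4.92-fold (2.30 ± 0.17, edgeR adjusted p = 3.2e-07). Kcnk10 (TREK-2, ENSMUSG00000033854.10, chr12:98429437-98578310, reverse strand), its closest relative, was at 0.0944, 0.103, 0 and 0.0504 CPM in WT and at 1.30, 1.17, 1.30 and 0.92 CPM in Mst1-TG. With 5 counts in WT against 113 in Mst1-TG the ratio was 19.1 (exact 95% counting interval 7.95 to 60, edgeR adjusted p = 1.6e-05). Kcnk10 passed the filter on low counts only through its Mst1-TG libraries, the group where it is high.

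Kcnk6 (TWIK-2) lay at 12.1, 13.03, 14.7 and 13.6 CPM in WT and at 12.6, 12.6, 14.1 and 12.3 CPM in Mst1-TG, with full overlap (-0.05 ± 0.09, edgeR adjusted p = 0.704). Kcnk5 and Kcnk13 did not pass, at 0.66 ± 0.29 and -0.37 ± 0.35. Kcnk2 is made by fibroblasts as well as cardiomyocytes. All 9 fibroblast markers rose and none was at 0, where 21.2% of all genes tested rose. The summed level of the 9 markers went from 2732 to 3633 CPM in WT to 6357 to 8835 CPM in Mst1-TG. Their median log2 fold change was 1.13. The part of fibroblasts in the rise of Kcnk2 was not tested. Kcng2 and Kcnk3 share 9.1% and 5.76% of their exon length with genes on the opposite strand that did not pass. Kcnk2 shares 12.2% of its exon length with A430027H14Rik on the opposite strand, which rose too but stayed below 1 CPM on average.

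The Hippo pathway, to which the Mst1 kinase belongs, ends in TEAD factors, which are known to bind the letters GGAATG. Promoter windows were searched for these letters on both strands. The windows of Kcnk2 and Kcnk10 that hold them are shown, with TEAD letters and GC boxes on either strand in capitals. Kcnk2 has more than 1 window in the table. They are chr1:189402224-189402523 for Kcnk2 and chr12:98578164-98578463 for Kcnk10, both on the reverse strand.
Kcnk2: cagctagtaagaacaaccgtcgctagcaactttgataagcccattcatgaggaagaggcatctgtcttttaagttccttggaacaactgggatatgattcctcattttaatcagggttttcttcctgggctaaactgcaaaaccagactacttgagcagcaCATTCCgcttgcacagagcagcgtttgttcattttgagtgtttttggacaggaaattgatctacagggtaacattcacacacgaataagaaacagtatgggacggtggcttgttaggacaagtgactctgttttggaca
Kcnk10: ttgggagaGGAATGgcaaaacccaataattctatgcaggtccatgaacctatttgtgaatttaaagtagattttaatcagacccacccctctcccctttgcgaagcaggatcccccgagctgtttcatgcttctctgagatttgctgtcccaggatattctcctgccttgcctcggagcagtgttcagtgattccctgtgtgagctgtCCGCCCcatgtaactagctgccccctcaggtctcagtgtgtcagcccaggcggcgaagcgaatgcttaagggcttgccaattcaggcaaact
The TEAD letters begin 89 bases before the start in Kcnk2, on the opposite strand, and 242 bases before it in Kcnk10. In Kcnk10 the second run in capitals is a GC box on the opposite strand. Over all promoter windows 14.7% hold the TEAD letters, and among members they occurred in 3 of 14 windows of genes that rose (Kcnk2, Kcnk10 and Kcnj6) and in 3 of 15 windows of genes that fell (Abcc9, Kcna5 and Kcnn4). The 14 windows came from 6 genes and the 15 from 14 genes, so these counts are not per gene. The match describes the letters and is not a measured binding site. The E-box CACGTG, the ERR letters AAGGTCA and the GATA letters AGATAA occurred in 7.22%, 3.09% and 4.12% of the 97 member windows, against 7.15%, 4.72% and 11.2% of all. Windows were found for 72 of the 100 members, 40 of them tested.

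The calcium-activated SK channel genes Kcnn1 and Kcnn2 fell, and the sodium-activated channel gene Kcnt2 rose. Of 9 tested members 3 fell, 1 rose and 5 did not pass, where 21.1% of all genes fell and 21.2% rose. Their median of -0.06 was 0.22 with library totals only and -0.24 without WT 4. Kcnn1 (SK1) was at 11.1, 10.4, 10.3 and 9.93 CPM in WT and at 3.49, 3.97, 3.22 and 3.18 CPM in Mst1-TG. The replicates were tight, and the 3-fold fall was clear of them (-1.59 ± 0.12, edgeR adjusted p = 2.7e-07). Kcnn2 (SK2) was at 16.9, 16.8, 16.9 and 13.1 CPM in WT and at 8.96, 10.7, 5.30 and 8.74 CPM in Mst1-TG, a fall of 0.92 ± 0.18 (edgeR adjusted p = 0.0013). Kcnn3 (SK3) did not pass (0.19 ± 0.14, edgeR adjusted p = 0.329). Kcnn4, the intermediate-conductance channel of blood cells and fibroblasts, was below 2.2 CPM in all libraries. Its fall of 0.76 ± 0.25 (edgeR adjusted p = 0.026) was lost without WT 4, Mst1-TG 1, Mst1-TG 3 or Mst1-TG 4, with library totals only (-0.48), with no filter on low counts and with the replicate block. Kcnt2, a sodium-activated channel, was at 5.33, 5.53, 4.23 and 4.69 CPM in WT and at 9.44, 10.9, 9.99 and 7.69 CPM in Mst1-TG, and rose by 0.94 ± 0.14 (edgeR adjusted p = 1.1e-04). The large-conductance channel Kcnma1 and its beta subunits Kcnmb1 and Kcnmb4 did not pass.

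Members with high and low counts differed in their calls. Of the 20 tested members with a mean of at least 10 CPM over all libraries, 15 fell, Kcnk2 rose and 4 (Abcc8, Kcne1, Kcnj12 and Kcnk6) did not pass. Among all genes at that level 27.3% fell and 22.6% rose. Of the 38 members below that level, 8 fell, 8 rose and 22 did not pass, where 11.9% and 19% of all such genes fell and rose. This level was chosen after the values were seen. Per kilobase of the longest annotated transcript, the WT order began with Kcnk3 (70.5 CPM per kb), Kcnip2 (56.5), Abcc9 (51.0), Kcng2 (49.9) and Kcnj11 (48.5). In Mst1-TG the same scale gave 54.0 for Kcnk3, 17.4 for Kcnip2, 29.6 for Abcc9, 40.4 for Kcng2 and 29.2 for Kcnj11. On this scale Kcnip2 was thus next to Kcnk3 in WT and below the other 4 in Mst1-TG. The neighbours Abcc9, Kcng2 and Kcnj11 in WT lay within the replicate spread of each other. With the median length of annotated transcripts in place of the longest, Kcnj11 (309 CPM per kb), Kcng2 (228) and Kcnip2 (207) led in WT. In Mst1-TG the median length put Kcnip2 (63.7) above Abcc9 (32.8) and below Kcnk3 (95.25), Kcng2 (184) and Kcnj11 (186). The order between genes thus depends on the transcript assumed. The median length was tried after the values were seen.

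**Figure D4:**
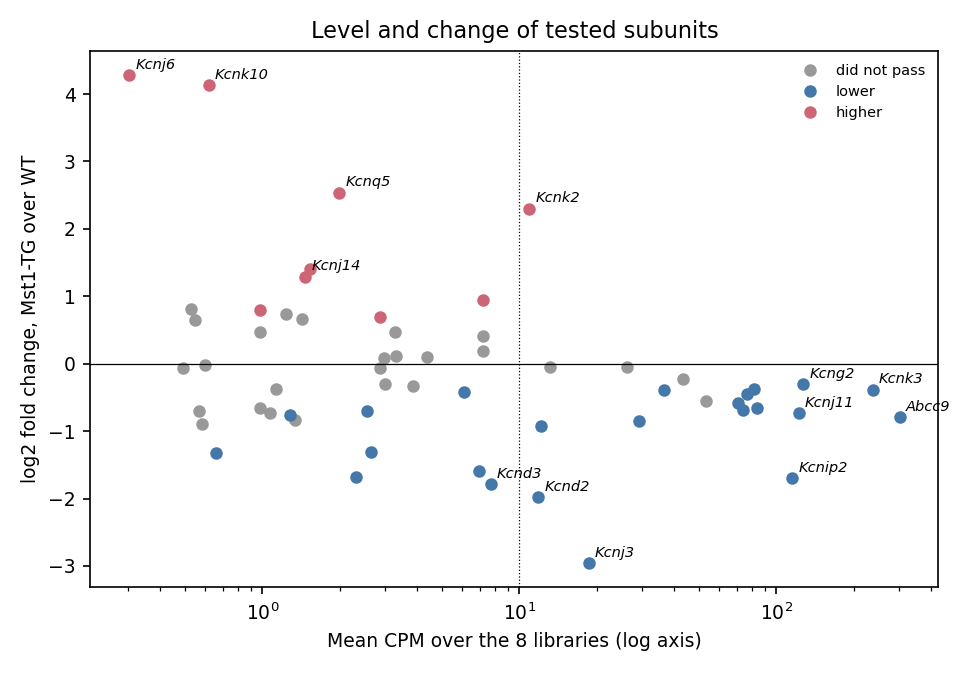
Log2 fold change (vertical axis) against mean CPM over the 8 libraries (horizontal log axis) for each tested member, coloured by call, with a dotted line at 10 CPM. Right of the line 15 of 20 members are lower and only Kcnk2 is higher.

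Ratios between subunits that are channel partners or relatives were compared within each library, where library scaling cancels. These are ratios of counts, not corrected for length. The 10 pairs were tested with an exact two-sided permutation test, for which the smallest p with 4 against 4 libraries is 0.0286. In 5 pairs the groups did not overlap, each at that smallest exact p of 0.0286, and at 0.0571 after Benjamini-Hochberg adjustment over the 10 pairs, so none passed 0.05 after adjustment. Counts of Kcna4 per count of Kcnd2 were 0.152, 0.18, 0.134 and 0.124 in WT and 0.848, 0.54, 0.928 and 1.14 in Mst1-TG, a log2 difference of 2.51 ± 0.26 (SE). Kcnk2 per Kcnk3 went from between 0.0105 and 0.0171 to between 0.0646 and 0.104, a log2 difference of 2.67 ± 0.21. Kcnj3 per Kcnj5 was at 0.322, 0.376, 0.328 and 0.437 in WT and at 0.0954, 0.0714, 0.0512 and 0.082 in Mst1-TG, a log2 difference of -2.31 ± 0.22. The Kir3 pair therefore shifted toward Kcnj5 in every Mst1-TG library. Kcnj12 per Kcnj2 was below 1 in every WT library (0.616 to 0.764) and above 1 in every Mst1-TG library (1.12 to 1.44), a log2 difference of 0.83 ± 0.12. Abcc8 per Abcc9 rose from between 0.105 and 0.138 to between 0.161 and 0.216 (0.54 ± 0.14).

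The other 5 pairs overlapped between groups. Kcnip2 per Kcnd2 differed by 0.37 ± 0.30 on the log2 scale (exact permutation p = 0.371), with Mst1-TG 3 and 4 at 17.2 and 16.7 and the other 6 libraries between 7.97 and 10.6. Kcnd3 per Kcnd2 differed by 0.25 ± 0.23 (exact permutation p = 0.286), so a change in the balance between Kcnd2 and Kcnd3 was not detectable. The Kv4 pore Kcnd1, which rose, was in none of the pairs. Kcnj8 per Kcnj11 differed by 0.14 ± 0.20 (p = 0.514, exact) and Kcne1 per Kcnq1 by -0.17 ± 0.21 (p = 0.486, exact).

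**Figure D5:**
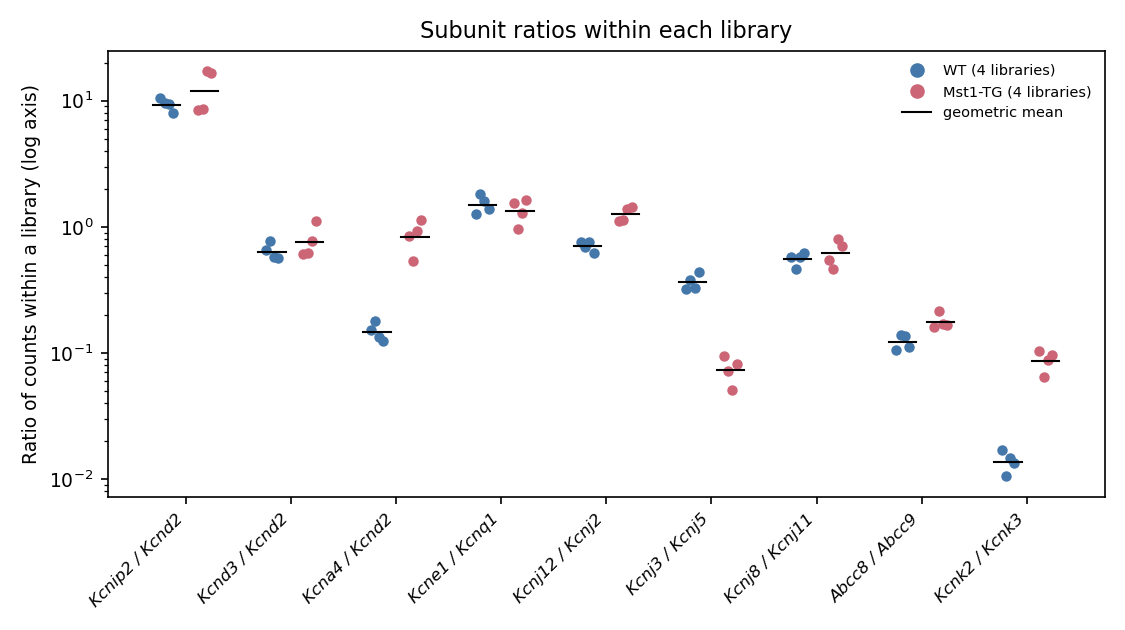
Ratio of counts of partner or related subunits within each library (log axis) for 9 of the pairs, with points for the 4 WT and 4 Mst1-TG libraries and lines at geometric means. The groups separate for Kcna4 per Kcnd2, Kcnj12 per Kcnj2, Kcnj3 per Kcnj5, Abcc8 per Abcc9 and Kcnk2 per Kcnk3.

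Genes outside the family that anchor, traffic or gate these channels changed in both directions. Of 36 tested partners, 11 rose, 11 fell and 14 did not pass, where 21.2% of all genes rose and 21.1% fell. Their median log2 fold change was -0.06. The rises of lowest p were Gnao1, a G protein alpha subunit (1.93 ± 0.06), the actin crosslinker Flnc (2.29 ± 0.13) and Popdc3, a relative of the TREK-1 partner Bves (1.06 ± 0.09). The falls of lowest p were Popdc2 (-0.62 ± 0.07), the membrane adaptor ankyrin-B, Ank2 (-0.71 ± 0.08), and Rgs6, which shortens G protein signalling to Kir3 channels (-0.76 ± 0.10). The edgeR adjusted p of these 6 lay between 3.4e-10 and 2.6e-05. The acetylcholine receptor Chrm2 and the adenosine receptor Adora1, which open Kir3 channels, did not pass (-0.26 ± 0.11 and -0.31 ± 0.12); they were chosen after their values were seen. The Kv4 partners Dpp6 and Dpp10 were below the filter, at means of no more than 0.306 CPM in either group.

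Of 24 tested transcription factors and kinases known to act on cardiac potassium channel genes, 5 rose, 7 fell and 12 did not pass, where 21.2% of all genes rose and 21.1% fell, with a median of -0.01. Falls were led by the nuclear receptor Esrra (-0.61 ± 0.07), the conduction system repressor Tbx3 (-0.81 ± 0.10) and Klf15, a factor known to drive Kcnip2 (-0.62 ± 0.14, from 43.1 to 28.0 CPM). Rises were led by Etv1 (0.52 ± 0.07), Nfatc4 (0.50 ± 0.12) and the kinase Prkca (0.38 ± 0.09), all at an edgeR adjusted p below 0.05. The Iroquois factors Irx3, Irx4 and Irx5, of which Irx5 is known to repress Kcnd2, did not pass (-0.20, 0.01 and 0.16).

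Markers of cells that could add channel transcripts were also counted. Over all genes tested, 21.2% rose and 21.1% fell. Of 10 neuron and Schwann cell markers 5 were tested, Cdh19 and Tubb3 rose, none fell, and none was at 0 in all libraries. Their sum was 14.4 to 18.4 CPM in WT and 16.8 to 25.8 CPM in Mst1-TG. The part of nerve cells in the rises of Kcnq5, Kcnj6 and Kcnk10 was not tested. Of 11 conduction system markers 10 were tested, 4 rose and 1 fell. Of 9 endothelial markers 3 fell, and of 8 tested leukocyte markers 1 fell, and none rose in either list. Erythroid markers did not pass, and of the skeletal muscle markers Acta1 and Tnnt3 rose and Ckm and Tnni2 fell.

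The 42 members that were not tested had at most 94 counts over the 8 libraries. Those with the most were Kcng4, a silent Kv6 subunit, with 63 counts in WT and 31 in Mst1-TG, the regulator Kcnrg with 32 and 28, and the strong inward rectifier Kcnj4 with 15 and 44. Kcnc1 (Kv3.1) had 2 counts in WT and 32 in Mst1-TG, a ratio of 13.5 (exact 95% counting interval 3.45 to 117, counting error only). Its counts were 12, 14, 1 and 5 in Mst1-TG 1 to 4, and Mst1-TG 3 lay within the WT range. These 4 genes were chosen after their values were seen. The antisense transcript Kcnd3os had 24 counts in WT and 11 in Mst1-TG. Kcne2, an auxiliary subunit of ERG channels, had 3 counts in all. Kcna10, Kcng3, Kcnh5, Kcnj9, Kcnk16, Kcnk18, Kcnmb4os1, Kcns2 and Kcnv1 were at 0 in every library.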

How the data were processed

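Gene expression was measured by RNA-seq of left ventricle in 8 samples, grouped by sample title into 4 Mst1-TG and 4 WT. Per the labels' protocols, ribosomal RNA was removed from total RNA before directional library construction. Per the submitters' processing notes, the authors used bcl2fastq 2.19.1.403 and kallisto 0.46.0, and they deposited one table of estimated counts per gene, in whole numbers not scaled for library size. The genome build, annotation and strand setting were not given in the sources used here. Of 55385 gene IDs, 54487 match GENCODE M21 (GRCm38) with their version, which gave coordinates and transcript lengths.

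The fit was made with edgeR 4.0.16 in R 4.3.3 (filterByExpr with minimum count 10 and minimum total 15, TMM factors, quasi-likelihood F test with robust fit, Benjamini-Hochberg adjustment over 15314 genes, threshold 0.05). SE is the log2 fold change divided by the root of F. The script was tested on simulated data. Alternatives used limma 3.58.1 and DESeq2 1.42.0. The members and gene lists were chosen with earlier results of these data known. Named members were 19 ventricular subunits, the 8 largest called rises and falls with a mean of at least 0.5 CPM, and the 2 of lowest p per current, and other genes were added after their values were seen; for the partner and regulator lists, the 3 of lowest p in each direction. Subunit ratios used counts plus 0.5. Every replicate pair differed beyond sampling noise (chi-square over its degrees of freedom, 7.28 to 21.1). The labels do not tie samples to animals, and a p-value here reflects only how far these samples vary. Intervals cover counting error only. Some genes enter the counts but are not reported here by name.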

Additional observations from a re-analysis of the deposited data

Results flagged for a closer look

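In 8 of the 80 groups of 4 libraries examined for named members, 1 library lay apart from the other 3 by Dixon's criterion at 95%. Chance alone gives about 1 in 20 groups. Abcc8 was at 53.5 CPM in Mst1-TG 2, against 34.3 to 36.6 CPM in the other Mst1-TG libraries. In Mst1-TG 3, Kcnk3 was at 186 CPM (others 212 to 213) and Kcnq1 at 26.3 CPM (others 33.1 to 33.7). In WT 4, Kcnn2 was at 13.1 CPM (others 16.8 to 16.9), Kcne4 at 8.47 CPM (others 5.22 to 5.71) and Kcnn4 at 2.12 CPM (others 1.396 to 1.474). In WT 2, Kcnj8 was at 72.8 CPM (others 88.6 to 90.5) and Kcna1 at 3.88 CPM (others 2.87 to 3.04).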

How the results depend on the processing

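Over 15 alternatives, 21 of the 32 named members that were called kept their direction and call in all, and the other 11 kept their direction but lost the call in at least 1. Of the 8 named members that did not pass, 5 passed in at least 1 and 3 changed sign. Abcc8 did both, and Kcnk13 did neither. With library totals only Kcnj12 was at 0.238 and Abcc8 at 0.0501. With single libraries left out Kcnj12 ran from -0.140 to 0.0444 and Kcnj15 from -0.0150 to 0.260. Members called higher numbered 8 to 13 and lower 14 to 26. The count of lower members moved by over 1.5 times only with library totals only (14), which also raised the higher calls to 13. The members' median of -0.35 was -0.067 with library totals only, -0.219 with no filter on low counts (91 members), -0.385 with limma-voom and -0.379 with the replicate block. It ran from -0.40 to -0.30 when single libraries were left out, and higher and lower calls then ran from 8 to 10 and from 20 to 26.

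Replicate numbers are shared between the groups, but samples of the same number did not deviate together (correlations -0.142, 0.0746, 0.0184 and -0.0183). No WT sample correlated best with the Mst1-TG sample of its own number. Such correlations cannot exclude a pairing that the labels do not state. The replicate block gave 8 higher and 21 lower members, 20 of them among the 23, and the lost calls included Kcna1, Kcng1 and Kcnn4. The subunit ratios kept their sides with a pseudocount of 1, and without 1 library no pair can reach 0.05 (smallest exact p 0.0571). Low counts kept 42 members from being tested. The causes of these changes were not tested.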
